A study of Mus musculus with 17 samples.

Results

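The genes described here are the 3 mitochondrial uncoupling proteins Ucp1, Ucp2 and Ucp3 and the ADP/ATP carriers Slc25a4 and Slc25a5, measured by RNA sequencing of brown adipose tissue. They were taken by gene symbol from a table of 55414 genes, and all 5 were found and passed the filter on low counts, which left 17717 genes. The tissue came from wild-type and conditional knockout C57BL/6J mice kept at 22 °C. Acbp, listed as Dbi, encodes the acyl-CoA-binding protein and was deleted in brown adipocytes of the knockout (Acbp BAd-KO). There were 4 wild-type and 3 knockout libraries on chow, and 5 of each genotype on HFD, which is 12 weeks on a high-fat diet with 45% of calories from fat. The promoter that drove the deletion, the ages and the sexes of the mice were not given in the sources used here, nor was it stated that the libraries came from separate mice, so p values measure the spread between these libraries.

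Brown adipocytes make heat by letting protons return across the inner mitochondrial membrane without making ATP. UCP1 is the carrier that does this in brown fat: long-chain fatty acids switch it on and purine nucleotides hold it closed. The ADP/ATP carriers exchange ADP for ATP across the same membrane and also conduct a fatty-acid-dependent proton leak, and Slc25a4 (ANT1) is the main isoform of heart and skeletal muscle, while Slc25a5 (ANT2) is widely expressed. UCP2 and UCP3 resemble UCP1 in sequence but are not known to replace its heat production. Ucp2 is prominent in macrophages and other immune cells, and Ucp3 in skeletal muscle and brown fat. UCP1 activity is set largely by fatty acids and nucleotides, so a transcript level is not a measure of proton leak.

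Ucp3 and Ucp2 are neighbours in the genome, on the same strand of chromosome 7, with 6904 bases between the annotated end of Ucp3 and the start of Ucp2 (GENCODE M21, GRCm38), yet their transcripts differed in opposite directions between diets in the knockout, as given below. The 250 bases before the start site are shown so that the proximal promoters of the Ucp genes can be set beside that of Slc25a5, the carrier with the least variable level. The sequences are RefSeq, build GRCm38.p6, an older build than the GRCm39 that the submitters' processing notes name. They lie at chr8:83290098-83290347 for Ucp1, chr7:100493108-100493357 for Ucp2, chr7:100472741-100472990 for Ucp3 and chrX:36795347-36795596 for Slc25a5, all on the plus strand. Capitals mark matches on either strand to TATANA (TATA box), TGACG (cAMP response half-site), AGGTCA (nuclear receptor half-site), GGGCGG (GC box) and CANNTG (E box).
Ucp1: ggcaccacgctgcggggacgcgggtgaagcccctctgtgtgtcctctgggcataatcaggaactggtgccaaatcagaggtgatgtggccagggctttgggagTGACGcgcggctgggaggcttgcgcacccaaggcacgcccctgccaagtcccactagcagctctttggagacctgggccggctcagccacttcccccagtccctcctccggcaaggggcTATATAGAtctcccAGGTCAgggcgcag
Ucp2: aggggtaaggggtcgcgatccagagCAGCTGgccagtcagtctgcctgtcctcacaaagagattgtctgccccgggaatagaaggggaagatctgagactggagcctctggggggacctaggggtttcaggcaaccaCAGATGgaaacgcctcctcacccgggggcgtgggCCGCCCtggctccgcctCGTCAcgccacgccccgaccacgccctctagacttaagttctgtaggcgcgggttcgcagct
Ucp3: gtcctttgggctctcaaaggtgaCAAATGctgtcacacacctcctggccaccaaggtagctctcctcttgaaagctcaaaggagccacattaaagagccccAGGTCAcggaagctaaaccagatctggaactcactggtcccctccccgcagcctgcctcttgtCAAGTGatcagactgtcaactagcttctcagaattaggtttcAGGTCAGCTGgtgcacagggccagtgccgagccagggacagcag
Slc25a5: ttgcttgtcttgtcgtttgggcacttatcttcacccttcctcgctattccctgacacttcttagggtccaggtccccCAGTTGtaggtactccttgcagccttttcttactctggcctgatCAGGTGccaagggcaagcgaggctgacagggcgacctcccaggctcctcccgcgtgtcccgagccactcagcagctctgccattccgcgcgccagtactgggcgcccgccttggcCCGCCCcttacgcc

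The Ucp1 stretch held 2 overlapping TATA matches, the farther of them ending 23 bases before the start, together with 1 TGACG and 1 AGGTCA. In a set of 32817 promoter stretches of the same length, TATANA occurred in 22.6%, TGACG in 17.7% and AGGTCA in 14.0%. Ucp3 held 2 AGGTCA matches, of which the nearer overlapped an E box, and 3 E boxes in all. Ucp2 held 1 CGTCA, which is TGACG read from the other strand, 1 GC box and 2 E boxes, and Slc25a5 held 1 GC box and 2 E boxes. GGGCGG occurred in 32.7% of all stretches and CANNTG in 66.2%. A match is a description of the letters, and binding was not measured. GENCODE M21 starts Ucp2 21 bases upstream of the RefSeq start used for its stretch. It starts Slc25a5 downstream of the RefSeq start, at base 36795651 instead of 36795597.

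Total counts per library ranged from 39.6 to 105 megacounts and were higher on HFD. The deleted gene followed its labels: Dbi was at 1022 ± 64.6 CPM (SD, n = 4) in chow wild-type and 97.2 ± 7.93 CPM (n = 3) in chow knockout, and at 701 ± 55.6 and 128 ± 21.3 CPM on HFD (n = 5 each). CPM here means counts per megacount of library total after scaling by trimmed mean of M-values (TMM). The brown fat markers Cidea, Cox8b and Ppara reached at least 407, 317 and 102 CPM in all 17 libraries, while Lhx8 stayed at or under 1.62 CPM. Libraries also held unequal amounts of muscle transcripts: 16 skeletal muscle markers summed to 33.0 to 3097 CPM on chow and to 37.7 to 13356 CPM on HFD, with the 2 highest in HFD knockout 2 and HFD wild-type 1. A list of 13 hepatocyte markers summed to 33.0 to 107 CPM on chow and to 20.3 to 287 CPM on HFD. In chow wild-type 1 to 4, 6, 5, 8 and 4 of these markers were at 0, and none was in any other library. All 13 were higher in chow knockout than in chow wild-type, with a median log2 difference of 5.60. In wild-type 12 were higher and 1 lower on HFD, with a median of 5.95. The medians over all genes were −0.01 and 0.02. HFD wild-type 1 and HFD knockout 2, 4 and 5, the 4 libraries with the highest muscle sums, are called muscle-rich below, and HFD wild-type 5 and HFD knockout 4 and 5 liver-rich. Without the muscle-rich libraries, just HFD knockout 1 and 3 remain in that group. Chow wild-type 1 and 3, with muscle sums of 2905 and 3097 CPM, stay in.

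Per kilobase of transcript, Ucp1 was the most abundant of the 5 genes in all 17 libraries and made up 76.1 to 87.7% of their sum. With the longest coding transcript of GENCODE M21 as the length, the order was Ucp1, Slc25a5, Slc25a4, Ucp3, Ucp2 in all 17 libraries. Mean levels in chow wild-type were 1399 CPM per kilobase for Ucp1, 195 for Slc25a5, 99.0 for Slc25a4, 29.3 for Ucp3 and 5.81 for Ucp2. The lower ranks depended on the length used. The M21 transcript of Ucp2 has 3988 bases, of which only 1597 lie within the RefSeq gene. That of Slc25a4 has 1925 bases, of which 1332 lie within its RefSeq gene. With each transcript trimmed to the RefSeq gene, 11 libraries kept that order. In 4 HFD libraries Ucp2 then came above Ucp3, and in 2 HFD libraries, wild-type 1 and knockout 2, Slc25a4 came above Slc25a5. The order of Ucp2 and Ucp3 in those 4 libraries, and of the carriers in those 2, therefore depends on the transcript length.

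**Figure D1:**
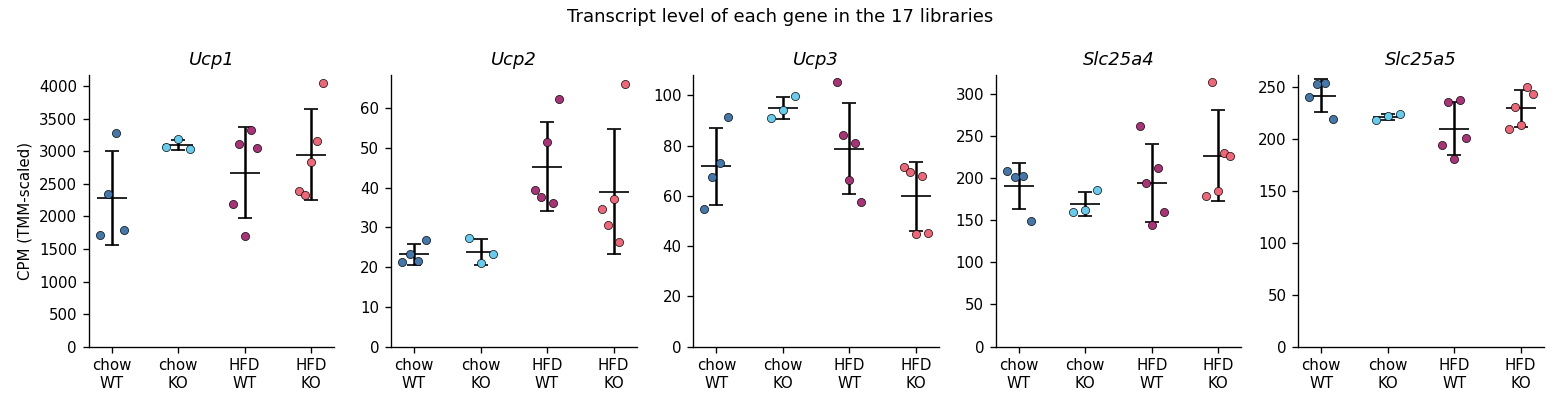
Transcript level of each gene in CPM (y axis, from 0, one scale per panel) in the 4 groups (x axis, WT is wild-type, KO is knockout). Points are libraries and bars the mean ± SD. Ucp2 in all 5 HFD wild-type libraries lies above all 4 chow wild-type libraries, and Ucp3 in all 5 HFD knockout libraries lies below all 3 chow knockout libraries.

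Ucp1 varied widely between libraries in 3 of the 4 groups. In chow wild-type the 4 libraries had 1715, 2350, 3291 and 1796 CPM. In chow knockout the 3 libraries had 3074, 3187 and 3042 CPM. The knockout values were tightly grouped and lay within the wild-type range, because wild-type replicate 3 was above them. On HFD, wild-type libraries had 2185, 3108, 1695, 3337 and 3053 CPM. The HFD knockout libraries had 2391, 2327, 2832, 3157 and 4055 CPM, which overlapped the wild-type ones with 1 library above all of them. The 95% interval of the genotype difference ran from −0.09 to 0.97 on chow and from −0.30 to 0.59 on HFD on the log2 scale, so both include 0 and the chow interval reaches far above it.

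The genotype comparison asks whether loss of the acyl-CoA-binding protein changed these transcripts. None of the 5 genes passed the test on either diet, where edgeR's quasi-likelihood test with Benjamini-Hochberg adjustment over all 17717 genes called 1.06% of genes on chow and 0.536% on HFD. Without adjustment, 0 of the 5 had a p under 0.05 on chow and 1, Ucp3, on HFD, beside 15.2% and 12.7% of all genes, and DESeq2 and limma-voom also called 0 on both diets. Ucp1 on chow differed by 0.44 ± 0.25 (log2 fold change ± SE, knockout over wild-type, adjusted p = 0.437), and by 0.67 without chow wild-type 3 (adjusted p = 0.193). Ucp3 on chow differed by 0.41 ± 0.21 (adjusted p = 0.379), and by 0.54 without chow wild-type 4 (adjusted p = 0.220). Its wild-type libraries had 54.5, 67.5, 73.2 and 91.3 CPM and its knockout libraries 91.1, 94.0 and 99.8 CPM, so 2 of the 3 knockout libraries were above all wild-type ones. On HFD the Ucp3 difference had the other sign, −0.40 ± 0.18 (adjusted p = 0.340), with wild-type at 105, 84.2, 66.2, 80.9 and 57.6 CPM and knockout at 71.6, 69.3, 44.8, 67.9 and 45.0 CPM. The change of the Ucp3 genotype difference with diet was −0.81 ± 0.27, with an unadjusted p of 0.00936 and an adjusted p of 0.307, and none of the 5 genes passed this interaction test, which called 0.0903% of all genes. DESeq2 and limma-voom called 0 of the 5 as well.

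Library numbers in the labels were grouped here into series wherever neighbouring numbers lay at most 10 apart, and these series partly followed the groups. What the numbers mark is not given in the sources used here. With the series in the model the Ucp1 and Ucp3 differences on chow were 0.29 (adjusted p = 0.790) and 0.21 (adjusted p = 0.809). On HFD they were −0.16 and −0.14 (both adjusted p = 1.0). Just 1 HFD knockout library shared its series with wild-type ones, so on that diet the term rests on a single library. Every chow library number lay below every HFD one, so diet and any difference between the series cannot be told apart.

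Ucp2 and the carriers also overlapped between genotypes. The Ucp2 difference was 0.04 ± 0.26 on chow (adjusted p = 0.957) and −0.22 ± 0.21 on HFD (adjusted p = 0.725). The HFD value was −0.49 without HFD knockout 5 (adjusted p = 0.202), the library with the most Ucp2, and −0.07 without HFD wild-type 5 (adjusted p = 0.913). Ucp1 on HFD was at 0.14 ± 0.21 (adjusted p = 0.836). Slc25a4 was at −0.17 ± 0.20 on chow (adjusted p = 0.755) and 0.22 ± 0.17 on HFD (adjusted p = 0.635). Slc25a5 was at −0.13 ± 0.10 and 0.13 ± 0.08 (adjusted p = 0.579 and 0.542). The Slc25a5 intervals were the narrowest, −0.33 to 0.08 on chow and −0.04 to 0.30 on HFD. For comparison, Tbc1d9 and Elmod2, which flank Ucp1 on its chromosome, rose in the knockout on chow by 1.74 ± 0.13 and 1.49 ± 0.13 (adjusted p = 4.27e-06 and 2.02e-05). On HFD they rose by 0.82 ± 0.11 and 0.69 ± 0.11 (adjusted p = 0.00274 and 0.0095, same edgeR test).

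**Figure D2:**
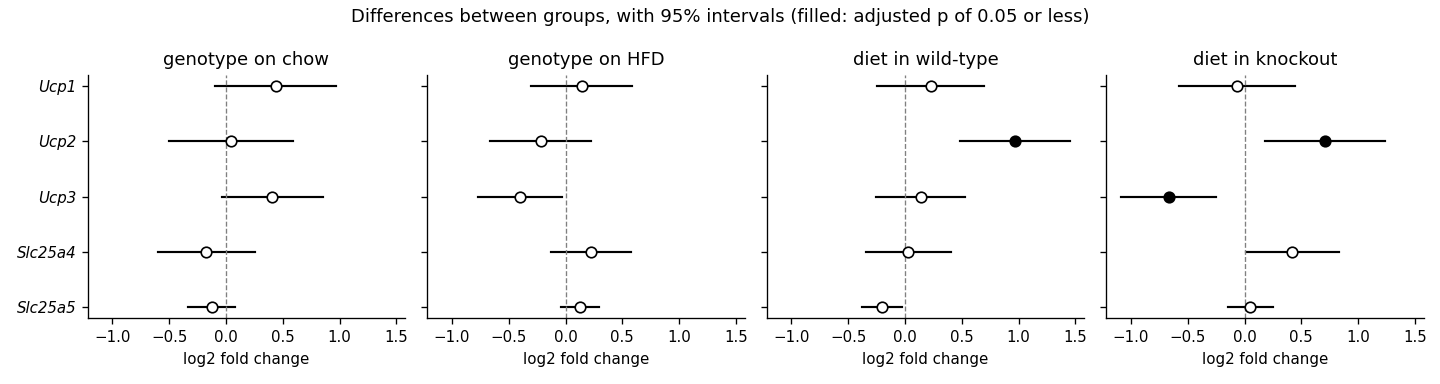
Log2 fold change of each gene (x axis) in 4 comparisons, knockout over wild-type for genotype and HFD over chow for diet, with 95% intervals as lines. Filled points passed an adjusted p of 0.05, as Ucp2 did in both diet comparisons and Ucp3 did in the knockout, and open points did not.

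The diet comparison asks what 12 weeks of HFD did in each genotype. Ucp2 was the only one of the 5 genes called in wild-type mice, where 32.1% of all genes were called, 16.9% higher and 15.2% lower on HFD. Its 4 chow wild-type libraries had 21.2, 23.2, 21.6 and 26.8 CPM. The 5 HFD wild-type libraries had 39.4, 37.5, 51.4, 36.0 and 62.2 CPM, so the groups did not overlap, as was the case for 24.8% of all genes. Ucp2 rose 1.95-fold, by 0.97 ± 0.23 (adjusted p = 0.00449). It passed under every alternative setting run, with values from 0.82 to 1.46 and adjusted p from 0.000123 to 0.0160. In bulk tissue, more cells of a type that expresses Ucp2 and more Ucp2 RNA per cell cannot be told apart.

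In the knockout Ucp2 was also called higher on HFD, but by a narrow margin. The chow libraries had 27.4, 20.9 and 23.3 CPM and the HFD libraries 34.6, 30.5, 37.0, 26.4 and 66.1 CPM, so 4 of 5 lay above all chow ones. Ucp2 rose 1.63-fold, by 0.71 ± 0.25 (adjusted p = 0.0473). Without HFD knockout 5, the library at 66.1 CPM, the difference was 0.43 (adjusted p = 0.0894), and it also missed the threshold without HFD knockout 1 or 3 or any of the 3 chow libraries (adjusted p from 0.0548 to 0.160). The effect of diet on Ucp2 was not shown to differ between genotypes (interaction −0.26 ± 0.33, adjusted p = 0.818).

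Macrophage markers moved with Ucp2. The 13 markers summed to 72.2 to 100.3 CPM in chow libraries, and on HFD to 125 to 296 CPM in wild-type and 101 to 233 CPM in the knockout. Of the 13, 12 rose on HFD in wild-type and 9 in the knockout, with median log2 differences of 1.20 and 1.07, beside 0.02 and 0.03 over all genes. Within the HFD groups, the 3 libraries with the most Ucp2 (wild-type 3 and 5 and knockout 5) were also the 3 with the highest macrophage sums. Among 7214 genes with a mean of at least 10 CPM, the 3 whose log2 CPM followed Ucp2 most closely over the 17 libraries were Mpeg1 (Pearson r = 0.95), Ctss (0.92) and Plxnb2 (0.91). Mpeg1 encodes the macrophage pore-forming protein perforin-2 and Ctss the lysosomal protease cathepsin S. After the group means were subtracted, Mpeg1 still came first (0.88), followed by Lgmn (0.85) and Adamts12 (0.81). These points share library and depth, and the part of macrophage RNA in the Ucp2 result was not tested.

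**Figure D3:**
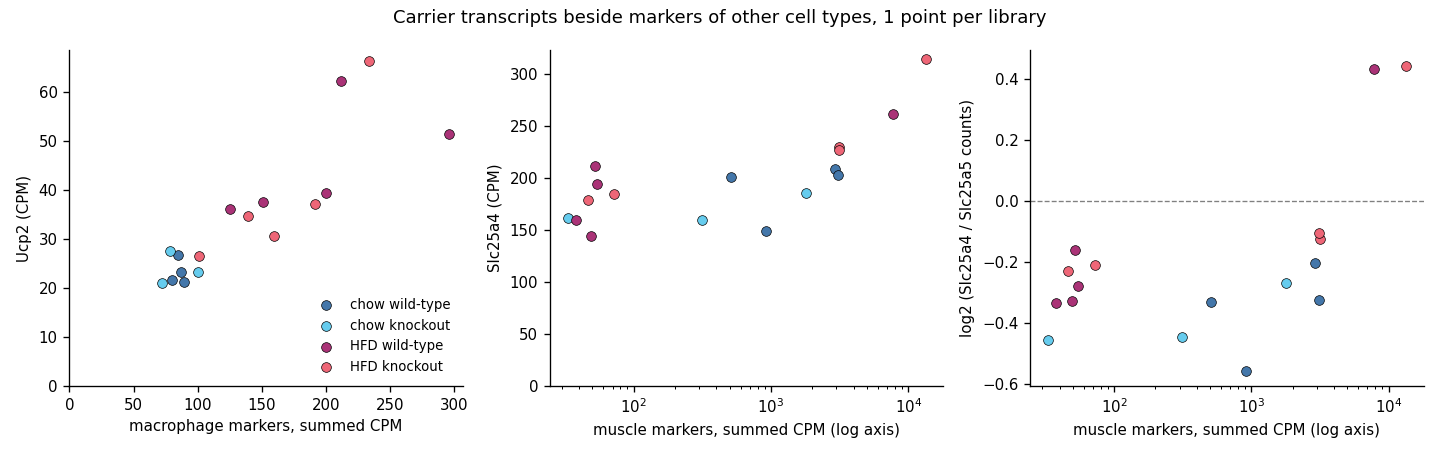
Ucp2 against summed macrophage markers (left, CPM), Slc25a4 against summed skeletal muscle markers (middle, CPM, log x axis) and the log2 ratio of Slc25a4 to Slc25a5 counts against the same muscle sum (right), 1 point per library, coloured by group. The chow libraries sit at macrophage sums of 72.2 to 100.3 CPM and the 2 libraries with muscle sums of 7775 and 13356 CPM are the only ones above 0 in the right panel.

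Ucp3 fell on HFD in the knockout. Chow knockout libraries had 91.1, 94.0 and 99.8 CPM and HFD knockout libraries 71.6, 69.3, 44.8, 67.9 and 45.0 CPM, without overlap, as for 31.6% of all genes. Ucp3 and Ucp2 were the 2 genes of the 5 called in this comparison, in which 25.8% of all genes were called, 12.8% higher and 13.1% lower. The drop of Ucp3 was 1.59-fold, −0.67 ± 0.20 (adjusted p = 0.0215). With scaling to library totals in place of TMM it was −0.41 and did not pass (adjusted p = 0.0983), and it missed the threshold without chow knockout 3, chow knockout 4 or HFD knockout 3 (adjusted p = 0.0566, 0.0722 and 0.0507). In wild-type mice the difference was 0.14 ± 0.19 (adjusted p = 0.613). The genotype by diet test of Ucp3 given above did not pass.

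Skeletal muscle also expresses Ucp3, and muscle markers were unequal between these libraries. In the knockout the muscle sum was 33.0 to 1800 CPM on chow and 46.1 to 13356 CPM on HFD, and all 16 markers were higher on HFD, none past the test. The lowest Ucp3 levels, 44.8 and 45.0 CPM, were in HFD knockout 3 and 5, whose muscle sums were 72.1 and 3124 CPM. The highest of all 17, 105 CPM, was in HFD wild-type 1 with a muscle sum of 7775 CPM, and HFD knockout 2, with 13356 CPM, had 69.3 CPM. Without the 4 muscle-rich libraries the drop of Ucp3 in the knockout was as large, −0.71 (adjusted p = 0.0448). That value rests on just HFD knockout 1 and 3, of which knockout 3 had the lowest Ucp3. The nearest genes to Ucp3 over the 17 libraries were Heyl (r = 0.82), Tspan15 (0.81) and Lpar6 (0.81). After the group means were subtracted they were Pja2 (0.86), Klhl7 (0.84) and Tob1 (0.82). An antisense gene, Gm10603, overlaps the 5′ end of Ucp3 and Dnajb13 overlaps the 3′ end of Ucp2 on the other strand (GENCODE M21). The strand setting of the counting was not given, and these genes had 2.30 to 4.08 and 0.14 to 1.54 CPM.

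Ucp1 did not change detectably with diet. The HFD difference was 0.23 ± 0.22 in wild-type (adjusted p = 0.471) and −0.07 ± 0.24 in the knockout (adjusted p = 0.852). When counts were scaled to library totals, the all-gene median on HFD was 0.49 in wild-type and 0.30 in the knockout, and Ucp1 stood beside those medians at 0.68 (adjusted p = 0.00982) and 0.20 (adjusted p = 0.526). Over the 17 libraries the genes closest to Ucp1 were Slc25a17, a peroxisomal carrier of the same protein family (r = 0.95), Nectin2 (0.93) and Pdpk1 (0.90). Within groups they were Golph3 (0.97), Slc25a17 (0.96) and Tysnd1 (0.95), and among the other 4 genes described here Slc25a5 was nearest (0.75).

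Slc25a5 had the smallest SD relative to its mean of the 5 genes in each group. It had 240, 253.5, 254 and 220 CPM in chow wild-type and 218, 222 and 224 CPM in chow knockout. On HFD it had 194, 236, 181, 237 and 201 CPM in wild-type and 210, 231, 213, 250 and 244 CPM in the knockout. The wild-type HFD libraries lay lower, 3 of 5 below all chow ones. That difference, −0.20 ± 0.08, did not pass (adjusted p = 0.0736), passed with DESeq2 (adjusted p = 0.0482) and without chow wild-type 4, HFD wild-type 2 or HFD wild-type 4 (adjusted p = 0.0435, 0.0364 and 0.0316), and turned to 0.26 with library totals (adjusted p = 0.00938). In the knockout the diet difference was 0.05 ± 0.09 (adjusted p = 0.712), and 0.31 with library totals (adjusted p = 0.0118), close to the all-gene median of 0.30 under that scaling. The genes that followed Slc25a5 most closely were mitochondrial: Tmem242, Ghitm and the ATP synthase subunit gene Atp5a1 (r = 0.95, 0.95 and 0.94), and within groups the complex I genes Ndufb5 and Ndufb9 with Atp5a1 (0.97, 0.96 and 0.97).

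Slc25a4 had 209, 201.5, 203 and 149 CPM in chow wild-type and 160, 162 and 186 CPM in chow knockout. On HFD it had 262, 195, 144, 212 and 160 CPM in wild-type and 179, 314, 184, 229.5 and 227 CPM in the knockout. The 2 highest values, 314 and 262 CPM, belonged to the libraries with the highest muscle sums, HFD knockout 2 and HFD wild-type 1. The diet difference was 0.03 ± 0.18 in wild-type (adjusted p = 0.920) and 0.42 ± 0.20 in the knockout (adjusted p = 0.125). Without the 4 muscle-rich HFD libraries the latter was 0.10 (adjusted p = 0.724), with just HFD knockout 1 and 3 left in that group. With library totals the diet differences in wild-type and knockout were 0.49 and 0.68 (adjusted p = 0.0204 and 0.0118), beside all-gene medians of 0.49 and 0.30. Its closest genes were Atp1b1, Pfkm and Ak1 (r = 0.95, 0.92 and 0.91), and within groups Adssl1 (0.96) came first. Pfkm encodes the muscle phosphofructokinase and Adssl1 the muscle adenylosuccinate synthetase.

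Ratios within a library need no scaling between libraries. The log2 ratio of Slc25a4 to Slc25a5 counts was above 0 just in HFD wild-type 1 (0.43) and HFD knockout 2 (0.44), and ran from −0.56 to −0.10 in the other 15 libraries. Its largest group difference was 0.35, HFD over chow in the knockout, with an exact two-sided permutation p of 0.0536 and 0.229 after adjustment over 8 ratio comparisons. Without the muscle-rich libraries it was 0.17, with just HFD knockout 1 and 3 left in that group. The part of muscle RNA in the Slc25a4 values was not tested further.

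**Figure D4:**
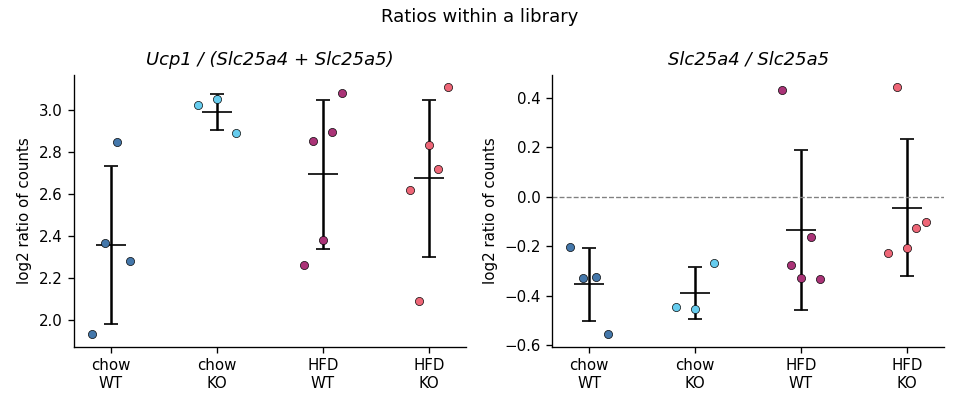
Log2 ratio of Ucp1 counts to the sum of Slc25a4 and Slc25a5 counts (left) and of Slc25a4 to Slc25a5 counts (right), by group on the x axis, with libraries as points and mean ± SD as bars. On the left the 3 chow knockout libraries lie between 2.89 and 3.05, above all 4 chow wild-type libraries, and on the right 2 HFD libraries stand above 0.

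Ucp1 relative to both carriers separated the chow genotypes more fully than Ucp1 alone did. The log2 ratio of Ucp1 to Slc25a4 plus Slc25a5 was 1.93, 2.37, 2.85 and 2.28 in chow wild-type and 3.02, 3.05 and 2.89 in chow knockout, without overlap. The mean difference was 0.63, a ratio 1.55 times as high in the knockout. The exact two-sided permutation p was 0.0571, where this design can give no p under 0.0286, and it was 0.229 after adjustment, so it does not pass. Muscle marker sums ran from 507 to 3097 CPM in chow wild-type and from 33.0 to 1800 CPM in chow knockout, so they overlapped. All 16 muscle markers were lower in the knockout, none past the test, with a median log2 difference of −1.25. With the muscle score in the model the Slc25a4 difference on chow was 0.00992, beside −0.17 without it. The part of muscle RNA in this ratio was not tested. On HFD the ratio was 2.69 ± 0.35 in wild-type and 2.67 ± 0.37 in the knockout (SD, n = 5 each; exact permutation p = 0.937). Diet gave 0.34 in wild-type and −0.31 in the knockout (both adjusted p = 0.444 by the same exact permutation test).

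Genes around these carriers were called mainly for diet, as genes at large were. Diet called 32.1% of all genes in wild-type and 25.8% in the knockout, and genotype 1.06% on chow and 0.536% on HFD. The list counts below stand beside these shares, and in most lists the direction depended on the scaling. With library totals diet called 61.7% of all genes in wild-type and 33.2% in the knockout, with all-gene medians of 0.49 and 0.30. List counts with library totals stand beside those values. In 19 genes that act on Ucp1 transcription, Ppargc1a and Dio2 rose in the knockout on chow, by 1.59 ± 0.29 (adjusted p = 0.0161) and 1.92 ± 0.44 (adjusted p = 0.0458), while none was called on HFD. Ppargc1a encodes the coactivator PGC-1α and Dio2 the deiodinase that makes active thyroid hormone. Both calls were lost with the library number series in the model and without chow wild-type 2, chow knockout 2 or chow knockout 3, and 1 of them without chow wild-type 1, chow wild-type 4 or chow knockout 4. The list median was 0.23 on chow, beside −0.01 for all genes. The list was not split into genes that raise and genes that lower Ucp1, so its median gives no direction for Ucp1. On HFD, 6 of the 19 fell in wild-type and 8 in the knockout, led by the factor genes Irf4 (−2.78 ± 0.38 and −2.34 ± 0.39), Nfia (−0.27 ± 0.06 and −0.55 ± 0.07) and Thrb (−0.48 ± 0.12 and −0.78 ± 0.12). With library totals 12 of the 19 rose and 1 fell in wild-type, and 4 fell in the knockout. Ucp1 itself was not called in these comparisons with TMM, and was called with library totals on HFD in wild-type, as given above.

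ATP synthase uses the proton gradient that the uncoupling proteins dissipate. Of its 15 measured subunit and inhibitor genes, 7 fell on HFD in wild-type, among them Atp5h (−0.50 ± 0.10), Atp5j2 (−0.72 ± 0.14) and Atp5l (−0.68 ± 0.15), and none rose. With library totals none fell and 3 rose. Brown adipocyte markers moved the same way in that comparison: 4 of 10 fell (Cidea, Kcnk3, Elovl3 and Zic1), none rose and the median was −0.45, while 12 of 13 macrophage and 4 of 6 endothelial markers rose. With library totals 3 of the 10 brown adipocyte markers rose and 2 fell. In the knockout 1 of the 10, Kcnk3, fell, with a median of −0.26. The part of a changed cell mix in the list results was not tested. Of the ATP synthase genes in the knockout none was called, and the list medians were −0.33 in wild-type and −0.07 in the knockout, beside 0.02 and 0.03 over all genes. Genotype called none of the 15 on either diet. All 15 were lower in the chow knockout and 14 were higher in the HFD knockout, with list medians of −0.12 and 0.18. The all-gene medians were −0.01 and 0.000973. Of 13 genes of the machinery that imports carrier proteins, 4 fell on HFD in wild-type, Timm8b, Timm22, Tomm22 and Timm13 (−0.51 ± 0.12, −0.43 ± 0.11, −0.35 ± 0.09 and −0.43 ± 0.13), and 2 fell in the knockout, Tomm70a and Tomm22. The list medians were −0.15 and −0.10. With library totals 9 rose in wild-type and 1 in the knockout, and none fell. The knockout calls were also lost with DESeq2's size factors.

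Other members of the carrier family also changed with diet. Of 7 measured relatives, Slc25a24 (0.91 ± 0.20, adjusted p = 0.00254) and Slc25a25 (1.33 ± 0.30, adjusted p = 0.00298) rose on HFD in wild-type. There Slc25a30 also rose (0.33 ± 0.12, adjusted p = 0.0383), and Slc25a23 fell (−0.28 ± 0.10, adjusted p = 0.0408). With library totals 5 rose and none fell, and the list median was 0.33 with TMM. In the knockout none of the 7 was called, 6 of 7 were higher on HFD and the median was 0.27. None was called by genotype or for the interaction, so the diet effect was not shown to differ between genotypes. Of 7 pore and outer membrane partners, Hk1, the hexokinase that docks at the outer membrane, rose on HFD by 1.29 ± 0.19 in wild-type and 1.15 ± 0.21 in the knockout (adjusted p = 0.000155 and 0.00122), and no other was called.

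Heat can also be made without UCP1, through creatine or calcium cycling among other routes. Of 11 measured genes listed for heat without UCP1, 4 rose and 2 fell on HFD in wild-type and 4 rose in the knockout, with medians of 0.23 and 0.74. Ryr2, a calcium release channel, went from 1.09 ± 0.76 to 47.0 ± 6.01 CPM in wild-type and from 0.48 ± 0.10 to 29.1 ± 10.9 CPM in the knockout. Gamt, of creatine synthesis, rose by 1.07 ± 0.16 and 1.19 ± 0.18, and the creatine transporter Slc6a8 rose in the knockout by 0.52 ± 0.12. Ckb, the brain-type creatine kinase, rose by 0.82 ± 0.19 and 0.74 ± 0.21. In wild-type the calcium pump gene Atp2a2 was the other that rose (0.50 ± 0.15), and Alpl and Pm20d1 fell (−0.62 ± 0.17 and −0.48 ± 0.14). Muscle expresses several of these genes, and without the 4 muscle-rich libraries 4 rose and 5 fell in wild-type, and 3 rose and 1 fell in the knockout. Of all genes, 29.6% in wild-type and 18.3% in the knockout were called in that setting. Of 17 genes of lipolysis and fatty acid supply, which deliver the activators of UCP1, Abhd5, the coactivator of adipose triglyceride lipase, rose in the chow knockout (0.64 ± 0.11, adjusted p = 0.0142), a call lost with the library number series in the model and without chow knockout 3 or 4. On HFD, 4 rose and 3 fell in wild-type and 3 rose and 3 fell in the knockout, with the fatty acid transporter Cd36 up (0.45 ± 0.07 and 0.40 ± 0.07) and the lipase gene Pnpla2 down (−0.54 ± 0.09 and −0.36 ± 0.10) in both. The list medians were 0.01 and 0.09. With library totals 11 rose and none fell in wild-type, and 9 rose and 2 fell in the knockout.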

How the data were processed

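Libraries were prepared from NucleoSpin-extracted total RNA with the TruSeq v2 kit, per the labels' protocols. The authors deposited whole-number counts per gene for 17 libraries. Per the submitters' processing notes, the tools were STAR 2.7.8a, RSEM 1.3.0, FastQC and DESeq, on GRCm39, with no roles given. The counts deposited may therefore be rounded RSEM estimates, in which reads shared with close copies are split. The copies Slc25a31 and Slc25a5-ps held 0 to 19 and 0 to 6 counts per library. The 5 genes had 751 (Ucp2) to 442888 (Ucp1) counts per library, so the spread between libraries and not counting limits precision.

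In edgeR 4.0.16 (R 4.3.3), filterByExpr kept 17717 genes, TMM factors scaled the totals, and 1 quasi-likelihood model with a coefficient per group was fitted to all 17 libraries. Tests were two-sided, and an adjusted p of 0.05 or less over all genes was called. Ratios were compared by exact permutation. The fit was also run on counts simulated from its own estimates of spread. These held no muscle, liver or library series differences, so that run cannot show how the fit handles them. Members and lists were chosen with earlier results of these data known. All 5 members, the 2 Ucp1 neighbours, and up to 3 called genes of each list by adjusted p are named, with the 3 genes most like each member in log2 CPM, and a few other called list genes were named after their values were seen. DESeq2 1.42.0, limma 3.58.1, other scalings, filters, blocks and left-out libraries were alternatives, of which those that leave out muscle-rich or liver-rich libraries or add a muscle score were chosen after seeing the data. Library pairs in a group differed by more than sampling noise (smallest chi-square per gene 25.5).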

Additional observations from a re-analysis of the deposited data

Results flagged for a closer look

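A sample stood far from the rest of its group in 4 of the 21 groups of values tested for it, and chance flags about 1 in 20 groups. Ucp2 in HFD knockout 5 was at 66.1 CPM, beside 26.4 to 37.0 CPM in the other 4 libraries of that group. That library had a macrophage sum of 233 CPM, the highest of its group. Slc25a4 in chow wild-type 4 was at 149 CPM, below the 201.5 to 209 CPM of the other 3 libraries. The log2 ratio of Slc25a4 to Slc25a5 was 0.432 in HFD wild-type 1 and 0.443 in HFD knockout 2, above every other library of both groups. The muscle marker sums of these 2 libraries were 7775 and 13356 CPM.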

How the results depend on the processing

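The Ucp2 rise on HFD in wild-type held under every alternative. The other calls were less firm. Scaling to library totals, which raised the all-gene median on HFD and called 61.7% of all genes in wild-type and 33.2% in the knockout, called 5 of the 5 genes in wild-type and 3 in the knockout (Ucp2, Slc25a4 and Slc25a5), and turned Slc25a5 to 0.26 there, Ucp1 in the knockout to 0.20 and Slc25a5 by genotype on HFD to −0.0105. DESeq2 called 2 genes for diet in wild-type. For diet in the knockout, 1 gene (Ucp3) was called without a filter, with limma-voom, with just the 2 groups fitted, without the muscle-rich libraries or with a muscle score. Ucp2 then had adjusted p from just over 0.05 to 0.0899.

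Correlations between same-numbered libraries ran from −0.72 to 0.22, and 0 of 6, 0 of 10, 3 of 8 and 3 of 6 libraries correlated best with their own number. The labels do not say what a replicate number marks. Deviations from the means of so few libraries cannot show whether the numbers pair them. The replicate block called 0 genes for diet in the knockout and 1 by genotype on HFD, Ucp3 (−0.40, adjusted p = 0.0427), and turned Ucp2 by genotype on chow to −0.00153 and the Slc25a4 to Slc25a5 ratio on chow to 0.0132.

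Directions of uncalled genes turned in other settings. With the series of library numbers in the model, Ucp2 by genotype on chow was −0.0184, Ucp1, Slc25a4 and Slc25a5 by genotype on HFD were −0.16, −0.12 and −0.00186, and the Slc25a4 interaction was −0.0630. Without the muscle-rich libraries, Ucp1 and Slc25a5 by genotype on HFD were −0.11 and −0.0232, Slc25a4 by diet in wild-type −0.0949 and Slc25a5 by diet in the knockout −0.0676. Without the liver-rich libraries, Ucp1 by genotype on HFD was −0.0362 and Slc25a5 by diet in the knockout −0.0207. With the muscle score, Slc25a4 on chow was 0.00992.

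Leaving out 1 library at a time called 0 genes by genotype on either diet and for the interaction, 1 to 2 for diet in wild-type and 0 to 2 for diet in the knockout. Signs turned within these ranges: Ucp2 by genotype on chow −0.0676 to 0.13, Slc25a4 by diet in wild-type −0.10 to 0.12, Ucp1 by diet in the knockout −0.21 to 0.00413, the Slc25a4 to Slc25a5 ratio −0.10 to 0.0132 on chow and −0.0330 to 0.23 on HFD, and the Ucp1 to carrier ratio on HFD −0.13 to 0.13. The cause of these changes was not tested.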
